A study of Mus musculus with 16 samples.

Results

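In sequenced RNA from mouse endothelial cells, 9 genes of platelets and of their bone marrow precursors, the megakaryocytes, were followed, out of 52636 genes in the deposited table. They were taken by name, with earlier results of these data known. Itga2b and Itgb3 encode the 2 subunits of the platelet fibrinogen receptor. The others, Gp1ba, Gp1bb, Gp9, Gp6, Treml1, Pf4 and Ppbp, are called platelet-only genes here as a working name. Mice were labelled Wild Type or double knockout for Erg and Fli1, and their liver, lung and heart were sampled. All mice, the controls included, had received tamoxifen to start the deletion, and tissue was taken at day 10. An antibody to VE-cadherin had been injected before the tissue was digested, and live cells without CD45 that carried both CD31 and VE-cadherin were sorted. The 16 libraries were 3 controls and 3 knockouts by label for liver, the same for lung, and 2 of each for heart. The driver of the tamoxifen-dependent recombinase, the deleted exons and the age of the mice are not stated in the labels or files.

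Platelets are shed by megakaryocytes and carry megakaryocyte RNA but no nucleus. The integrin of the alpha-IIb subunit (Itga2b, also known as CD41) and the beta-3 subunit (Itgb3) binds fibrinogen and links platelets to each other. Alpha-IIb pairs with beta-3 alone, while beta-3 also pairs with alpha-v (Itgav) in endothelial and other cells. Gp1ba, Gp1bb and Gp9 encode parts of the receptor for von Willebrand factor, Gp6 encodes a collagen receptor, Treml1 a receptor stored in platelet granules, and Pf4 and Ppbp the chemokines of those granules. ETS factors, Fli1 among them, are known to bind promoters of several of these genes in megakaryocytes. CD31, 1 of the sorting markers, is also found on platelets.

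The stretches before the start sites of 4 members are shown because they include the gene the comparisons turn on, Itga2b, the granule gene that rose in all 3 tissues, Pf4, and 2 receptor genes that differed from them, Gp9 and Gp1ba. Each covers the 250 bases before the RefSeq start (GRCm38.p6), 5′ to 3′ on the strand of the gene, and capitals mark the ETS core GGAAG on either strand (CTTCC where it lies on the other strand). The Itga2b stretch is chr11:102469884-102470133 on the minus strand. In the GENCODE M21 annotation Itga2b reaches 102470122, so most of its stretch lies inside the gene as annotated there. The Gp1ba stretch is chr11:70638872-70639121, that of Gp9 chr6:87777820-87778069 and that of Pf4 chr5:90772185-90772434, all on the plus strand.
Itga2b: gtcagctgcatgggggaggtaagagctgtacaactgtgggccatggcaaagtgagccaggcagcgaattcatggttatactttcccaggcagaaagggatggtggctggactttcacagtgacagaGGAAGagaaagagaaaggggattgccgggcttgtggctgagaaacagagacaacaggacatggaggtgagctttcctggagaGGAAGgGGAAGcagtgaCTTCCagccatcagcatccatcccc
Gp1ba: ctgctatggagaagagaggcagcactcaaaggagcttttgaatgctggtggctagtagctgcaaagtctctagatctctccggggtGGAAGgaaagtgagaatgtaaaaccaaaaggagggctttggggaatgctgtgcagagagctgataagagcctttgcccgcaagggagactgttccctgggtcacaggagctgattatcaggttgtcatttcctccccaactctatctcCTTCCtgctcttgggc
Gp9: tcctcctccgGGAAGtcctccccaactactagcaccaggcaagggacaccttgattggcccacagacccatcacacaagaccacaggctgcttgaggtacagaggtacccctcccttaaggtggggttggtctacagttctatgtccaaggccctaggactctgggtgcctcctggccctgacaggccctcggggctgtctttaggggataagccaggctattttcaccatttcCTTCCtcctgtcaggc
Pf4: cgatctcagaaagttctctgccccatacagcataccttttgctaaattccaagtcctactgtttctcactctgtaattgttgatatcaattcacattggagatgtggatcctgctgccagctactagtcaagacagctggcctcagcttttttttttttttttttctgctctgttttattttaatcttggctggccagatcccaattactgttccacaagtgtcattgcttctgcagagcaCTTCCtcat
The core occurred 4 times before Itga2b, 2 times before Gp1ba and Gp9, and 1 time before Pf4. Of 32851 mouse promoters of the same length, 64.1% held the core at least 1 time. Of the 9 members 8 matched the RefSeq table, Itgb3 being the exception. Among the other 4, Gp1bb and Ppbp held 2 cores each, Treml1 held 1 and Gp6 none. The GATA core AGATAA, found in 9.99% of promoters, occurred only before Gp6 among the 8, and the AP-1 core TGANTCA, found in 6.75%, before Gp1bb and Ppbp. These matches are exact letters in a window, so other spellings of the same motifs were not counted. None was measured as a bound site.

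Total counts ran from 30226340 to 41449054 per library, and levels are CPM, counts scaled to a common effective library size, with mean ± SD over libraries. Nothing in the labels says that all replicates came from separate animals, so p-values measure the spread between these libraries, part of which may be technical. The words rose and fell mark an adjusted p under 0.05 in edgeR quasi-likelihood tests with Benjamini-Hochberg adjustment over 19646 genes, with log2 changes followed by their standard error (SE). All 9 members were among those genes. By whole-gene counts, Erg fell in liver and lung (log2 −1.31 and −0.52) and had −0.47 in heart (adjusted p = 0.0538), while Fli1 rose in lung (log2 0.69) and fell in no tissue. None of 9 endothelial markers was at 0 in any library, but their summed level was lower in every knockout-labelled library than in any control of its tissue. The sums were 13828 to 15489 and 9653 to 12635 CPM in liver, 15668 to 16109 and 9233 to 12169 CPM in lung, and 12857 to 13065 and 7718 to 8740 CPM in heart. Of the 9, 4, 4 and 5 fell in liver, lung and heart, Tie1, Tek and Esam in all 3 tissues, and Emcn rose in lung. Their part in the members' changes was not tested. In bulk RNA, more platelets in a sorted sample and more platelet-gene RNA per endothelial cell cannot be told apart.

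In the control libraries Itgb3 was the most abundant member in liver. Per kilobase of exon, taken over all annotated transcripts of a gene together, it stood at 16.6 ± 2.66 CPM per kb. The order of genes depends on that length, and the SD does not cover error in it. Pf4 at 5.19 ± 0.76 and Itga2b at 5.09 ± 0.88 CPM per kb came next and did not differ beyond their spread, followed by Gp1ba at 2.20 ± 0.448 and Ppbp at 1.95 ± 0.734 CPM per kb. Gp9 had 0.754 CPM per kb in liver, Gp1bb 0.189, Treml1 0.168 and Gp6 0.0274. Lung controls had another order: Ppbp, a granule chemokine, led at 8.02 ± 1.67 CPM per kb, ahead of Pf4 (3.78 ± 1.07) and Itgb3 (3.53 ± 0.264), whose spreads overlapped. In heart controls Pf4 (4.02 ± 1.70), Itgb3 (2.83 ± 0.237) and Ppbp (2.12 ± 0.19 CPM per kb) were highest, and Itga2b had 1.33 CPM per kb.

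Between control tissues the members split. Lung exceeded liver for Gp1bb (log2 difference 2.95), Gp6 (2.46), Treml1 (2.14), Ppbp (2.04) and Gp9 (1.59), whereas Itgb3 (−2.23), Itga2b (−1.49) and Gp1ba (−1.45) were lower in lung, and Pf4 did not pass. That made 8 of 9 members past the threshold, against 47% of all genes tested. Heart was below liver for the same 3 genes, Itgb3 (−2.55), Itga2b (−1.94) and Gp1ba (−1.72), 3 of 9 members against 47.6% of all genes. Heart was below lung for Gp1bb (−2.09) and Ppbp (−1.92), 2 of 9 against 29.5%. The shares of members in the heart comparisons were thus below those of all genes. Itga2b and Itgb3 therefore had their highest control levels in liver, and 5 of the 7 platelet-only genes had theirs in lung.

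**Figure D1:**
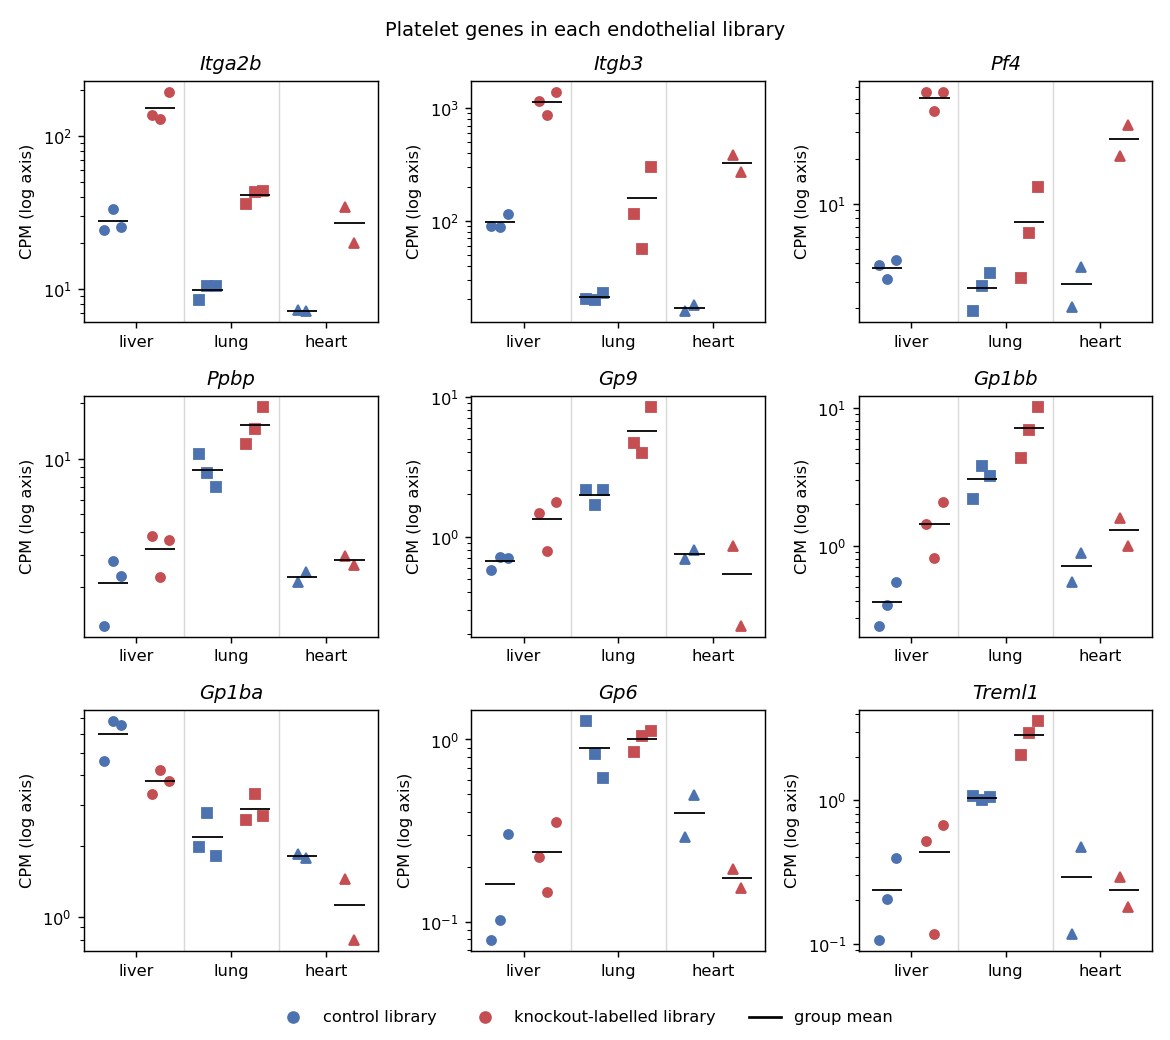
Level of each of the 9 genes in each of the 16 libraries, in CPM on a log axis, with a horizontal line for the group mean. Circles are liver, squares lung and triangles heart; blue marks control and red knockout-labelled libraries. Itga2b and Itgb3 lay higher in every knockout-labelled library than in any control of the same tissue, while Gp1ba, Gp6 and Treml1 had at most 6.81 CPM in any library.

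In the comparison of genotypes as labelled, Itga2b, Itgb3 and Pf4 rose in all 3 tissues and the other 6 members did so in 1 tissue or none. Of all genes tested, 1.01% rose in all 3 tissues. Since the members were chosen with earlier results of these data known, their counts beside such shares are descriptions and not a test. In liver 4 of 9 members rose (Itga2b, Itgb3, Pf4 and Gp1bb) and none fell, where 9.54% of all genes tested rose. In lung the 4 were Itga2b, Itgb3, Pf4 and Gp9, against 4.35% of all genes, and in heart 3 rose, Itga2b, Itgb3 and Pf4, against 10.2%. The median log2 change over the members was 1.01 in liver, 1.45 in lung and 0.29 in heart, beside 0.02, −0.02 and 0.01 over all genes. Libraries of the groups did not overlap for 5 members higher and 1 lower in liver, where 18% of all genes were higher and 19% lower without overlap. In lung 6 were higher and none lower (13.3% and 16.1% of all genes), and in heart 5 were higher and 2 lower (30% and 29%).

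Itga2b lies on chromosome 11 (GRCm38, 102453297 to 102470122, minus strand). In liver its level was 24.5, 33.3 and 25.5 CPM in the controls against 138, 129 and 195 CPM in the libraries labelled knockout. In lung it was 8.53, 10.6 and 10.5 CPM against 36.0, 43.4 and 44.1 CPM. Heart controls stood at 7.28 and 7.21 CPM, with 34.4 and 19.9 CPM in the other 2 libraries. In every tissue the lowest knockout-labelled library stood above the highest control, and heart knockout-labelled library 2 stood below library 1. The log2 change was 2.47 in liver (SE 0.213, adjusted p = 4.65e-06 by edgeR), 2.06 in lung (SE 0.212, adjusted p = 0.000105) and 1.91 in heart (SE 0.261, adjusted p = 0.00033). The change itself did not pass as different between tissues: lung minus liver was −0.41 (SE 0.288), heart minus liver −0.56 (SE 0.325) and heart minus lung −0.15 (SE 0.326).

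Itgb3, the beta-3 partner, lies on the same chromosome (104608000 to 104670476, plus strand) and changed by more. Liver went from 89.7, 88.0 and 116 CPM to 1163, 877 and 1396 CPM, heart from 15.7 and 17.7 to 385 and 269 CPM. In lung, Itgb3 went from 20.1, 19.8 and 22.6 CPM to 115, 56.0 and 304 CPM. The groups did not overlap in any tissue, and the lung libraries were the most uneven. Log2 changes were 3.55 (SE 0.459, adjusted p = 0.000118 by edgeR) in liver, 2.92 (SE 0.449, adjusted p = 0.00139) in lung and 4.29 (SE 0.585, adjusted p = 0.000328) in heart. Without lung knockout-labelled library 3, the lung change of Itgb3 was 2.04. The ratio of Itgb3 to Itga2b rose with the label in 2 tissues, in that no library overlapped: 3.62 ± 0.951 against 7.47 ± 0.845 in liver and 2.31 ± 0.211 against 12.3 ± 1.64 in heart. In lung the ratio was 2.13 ± 0.244 in the controls and 1.29, 3.19 and 6.88 in knockout-labelled libraries 2, 1 and 3, which overlapped.

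Besides Itgav, the other known partner of beta-3, 7 integrin genes that pair with neither subunit were read for comparison. Of the 8 genes, 2 rose and 3 fell in liver, 2 rose and 1 fell in lung, and 4 rose in heart. Itgav, the alpha-v subunit, had 32.9 ± 2.74 and 33.4 ± 2.58 CPM in liver (adjusted p = 0.953), rose in lung from 40.5 ± 4.24 to 91.2 ± 20.8 CPM and in heart from 35.04 ± 4.01 to 136 ± 35.1 CPM. Itgb1, the beta-1 subunit, rose in lung (log2 0.72) and heart (log2 0.66). Itga5, of the fibronectin receptor, fell in liver (−0.77) and rose in heart (1.70), as did Itga9 (−1.11 and 1.09).

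Pf4 is a heparin-binding chemokine of platelet granules, at chromosome 5 (90772435 to 90773383, plus strand), and had the largest fold change of the platelet-only genes in liver and heart. In lung Gp9 (log2 1.51) and Treml1 (1.45) had estimates as high as that of Pf4. Its liver level was 3.90, 3.13 and 4.19 CPM in the controls against 55.6, 41.3 and 55.6 CPM with the knockout label. Heart had 2.03 and 3.77 CPM against 20.7 and 33.3 CPM. For lung the values were 1.91, 2.80 and 3.46 CPM against 3.18, 6.35 and 12.97 CPM. Liver and heart separated fully, while in lung knockout-labelled library 1 lay among the controls. The log2 change was 3.76 in liver (SE 0.441, adjusted p = 5.15e-05 by edgeR), 1.46 in lung (SE 0.416, adjusted p = 0.0443) and 3.22 in heart (SE 0.531, adjusted p = 0.00109). The lung call ended without any 1 of 5 lung libraries, all but knockout-labelled library 1, with a log2 change of 0.80 (adjusted p = 0.226) without knockout-labelled library 3, and it ended in a fit of lung alone (adjusted p = 0.0972).

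Ppbp, the other granule chemokine, is the neighbour of Pf4 (90768518 to 90770063, same strand). Liver levels were 1.24, 2.79 and 2.31 CPM against 3.80, 2.29 and 3.61 CPM with the knockout label, which overlapped (log2 0.62, adjusted p = 0.178 by edgeR). Lung had 10.6, 8.37 and 7.05 against 11.96, 14.5 and 19.2 CPM, which did not overlap but did not pass (log2 0.81, adjusted p = 0.11). Heart had 2.15 and 2.44 against 2.96 and 2.66 CPM (log2 0.29, adjusted p = 0.627). The ratio of Pf4 to Ppbp thus moved from 2.03 ± 1.03 to 16.02 ± 1.79 in liver and from 1.25 ± 0.424 to 9.76 ± 3.90 in heart, with no overlap of libraries. In lung the ratio was 0.335 ± 0.155 and 0.46 ± 0.206, and the groups overlapped.

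The genes of the von Willebrand factor receptor did not move as 1 group. Gp1bb, its beta chain, rose in liver from 0.264, 0.374 and 0.547 to 1.45, 0.812 and 2.07 CPM (log2 1.87, SE 0.459, adjusted p = 0.0109 by edgeR). These are 10 to 65 reads per library. Lung had 2.20, 3.80 and 3.21 CPM of Gp1bb against 4.32, 6.87 and 10.2 CPM, a difference that missed the threshold (log2 1.22, adjusted p = 0.0839). No library overlapped for Gp1bb in liver, lung or heart, where the log2 change was 0.84 (adjusted p = 0.293). The liver call ended without liver control 1 (adjusted p = 0.0501). Gp1bb (chromosome 16, 18620317 to 18622403, minus strand) overlaps Sept5, a septin gene on the same strand, so reads of the 2 genes may have been split. Sept5 passed in no tissue (log2 1.65 in liver, −1.23 in lung and 1.13 in heart).

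Gp9, which holds the receptor together at the surface, lies on chromosome 6 (87778072 to 87779768, plus strand). It rose in lung from 2.16, 1.69 and 2.15 to 4.66, 3.99 and 8.50 CPM (log2 1.51, SE 0.424, adjusted p = 0.041 by edgeR), with all knockout-labelled libraries above the controls. The call ended when any lung library but knockout-labelled 2 was left out (adjusted p up to 0.178). Liver had 0.58, 0.715 and 0.699 against 1.48, 0.783 and 1.76 CPM of Gp9 (log2 1.01, adjusted p = 0.138), again with no overlap. Heart had 0.696 and 0.804 against 0.856 and 0.23 CPM, which overlapped (log2 −0.46, adjusted p = 0.614).

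Gp1ba, the chain that contacts von Willebrand factor (chromosome 11, 70639122 to 70642036, plus strand), passed in no tissue. Its liver values were 4.59, 6.81 and 6.56 CPM in controls against 3.32, 4.23 and 3.80 CPM, all lower (log2 −0.66, SE 0.27, adjusted p = 0.107 by edgeR, and 0.0445 by DESeq2). Lung had 1.99, 2.77 and 1.81 against 2.57, 3.34 and 2.68 CPM, which overlapped (log2 0.39, adjusted p = 0.446). For heart the values were 1.86 and 1.77 against 1.44 and 0.793 CPM (log2 −0.70, adjusted p = 0.179). Gp1ba was thus the one member with a negative estimate in liver, opposite in sign to Itga2b.

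Gp6 (chromosome 7, 4363965 to 4397744, minus strand) and Treml1 (chromosome 17, 48359916 to 48367176, plus strand) were the scarcest members, with 3 to 52 and 4 to 121 reads per library. Gp6 had log2 changes of 0.56, 0.15 and −1.16 in liver, lung and heart (adjusted p = 0.536, 0.897 and 0.238 by edgeR). In lung, Treml1 was at 1.07, 0.997 and 1.06 CPM in controls against 2.06, 2.95 and 3.56 CPM. The lung groups did not overlap for Treml1, yet the change did not pass (log2 1.45, SE 0.555, adjusted p = 0.133), and it passed in a fit of lung alone (adjusted p = 0.0214). In liver and heart Treml1 had log2 0.88 and −0.31 (adjusted p = 0.379 and 0.831) and overlapped.

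**Figure D2:**
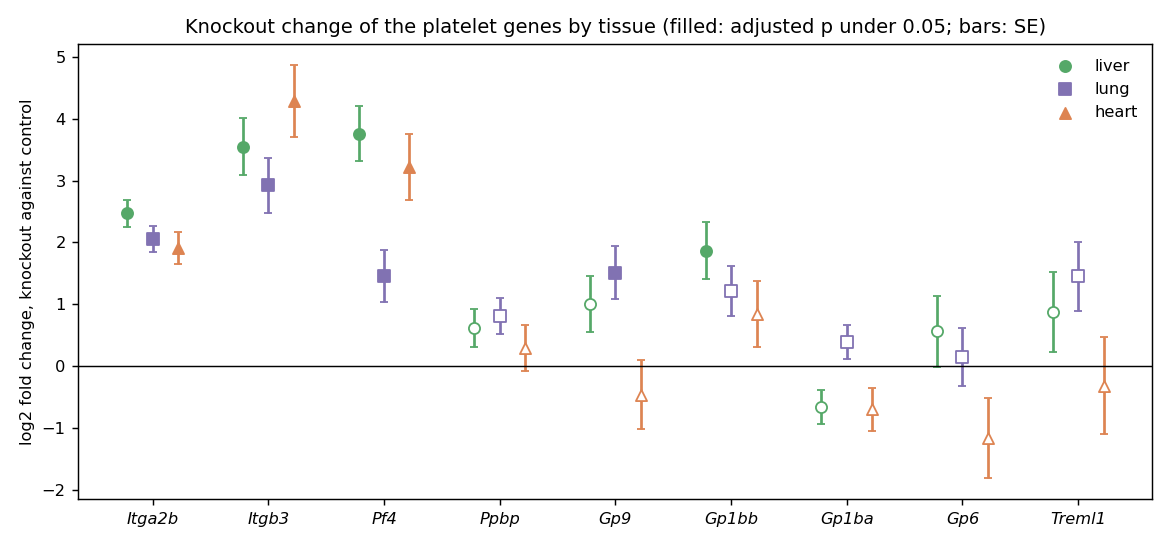
Log2 fold change of each gene, knockout-labelled against control, by tissue, with bars of 1 SE; filled symbols passed an adjusted p of 0.05. Itga2b, Itgb3 and Pf4 were filled in all 3 tissues, Gp1bb in liver and Gp9 in lung, and the heart values of Gp9, Gp1ba, Gp6 and Treml1 lay below 0.

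Differences between tissues in the knockout change were tested as interaction terms. Lung minus liver passed for 1 of 9 members, Pf4 (log2 −2.30, SE 0.58, adjusted p = 0.031), against 6.2% of all genes. That call ended when any 1 of 7 liver or lung libraries was left out, with differences of −2.96 to −1.94 and adjusted p up to 0.0834. Heart minus liver passed for 0 of 9 members by edgeR, against 8.32% of all genes, with 0 at an unadjusted p under 0.05 and 0 by DESeq2. Heart minus lung passed for 0 of 9 by edgeR, against 6.4%, with 3 at an unadjusted p under 0.05 (Gp1ba, Gp9 and Pf4) and 0 by DESeq2.

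The question of whether Itga2b moves with the platelet-only genes was first read as a ratio within each library. Over the summed CPM of the 6 platelet-only genes other than Pf4, Itga2b stood at 2.99 ± 0.608 in liver controls and 14.7 ± 1.65 in knockout-labelled libraries. In lung the ratio was 0.558 ± 0.111 and 1.22 ± 0.214, and in heart 1.17 ± 0.169 and 4.33 ± 0.506. The groups did not overlap in any tissue, so Itga2b was higher relative to that sum. Over Gp9 alone, 1 of the 6, the Itga2b ratio also separated in liver and heart, but in lung it was 5.03 ± 1.15 and 7.93 ± 2.85 and the groups overlapped. The sum of the 6 was 9.55 ± 2.34 and 10.5 ± 1.96 CPM in liver and 6.27 ± 0.858 and 6.18 ± 1.64 CPM in heart, which overlapped. In lung it was 17.9 ± 1.78 and 34.8 ± 9.60 CPM without overlap. Gp1ba made up most of that sum in liver controls, at 5.99 ± 1.22 CPM, and had 3.78 ± 0.457 CPM with the knockout label. The other genes of the sum had positive estimates in liver, where Gp1bb alone rose, so the sum does not stand for each gene. With Pf4 in the sum, the ratio was 2.11 ± 0.357 and 2.51 ± 0.398 in liver and 0.812 ± 0.191 and 0.873 ± 0.499 in heart, both overlapping, and 0.481 ± 0.0721 and 1.03 ± 0.24 in lung without overlap. Pf4 made up most of the sum in knockout-labelled liver and heart, so the ratio turned on whether Pf4 was counted. The choice to leave Pf4 out was made after seeing the data.

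**Figure D3:**
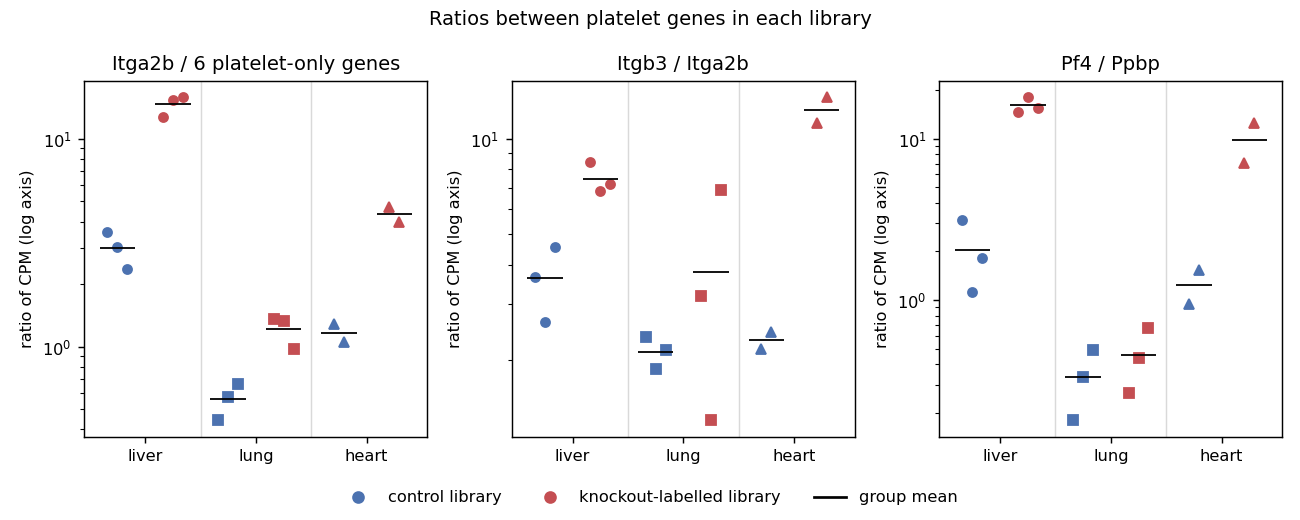
Ratios of CPM within each library on log axes: Itga2b over the 6 platelet-only genes without Pf4, Itgb3 over Itga2b, and Pf4 over Ppbp. Each point is 1 library and the line is the group mean. The Itga2b ratio was higher in every knockout-labelled library than in the controls of its tissue, whereas Itgb3 over Itga2b and Pf4 over Ppbp overlapped in lung.

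The second reading asked whether libraries of the same group that were high in Itga2b were also high in the platelet-only genes. Log2 CPM values were centred on their group means, since libraries cluster by tissue and genotype, and 7 relations were tested over 16 libraries by exact permutation within groups (two-sided). Pearson r with Itga2b was 0.70 for Gp9 (permutation p = 0.111, rho 0.60, p = 0.14), 0.67 for Gp1bb (p = 0.023, rho 0.738, p = 0.0133) and 0.60 for Gp1ba (p = 0.167, rho 0.556, p = 0.166). It was 0.45 for Treml1 (permutation p = 0.149, rho 0.45, p = 0.13), 0.40 for Ppbp (p = 0.161, rho 0.406, p = 0.156), 0.15 for Gp6 (p = 0.607, rho 0.197, p = 0.493) and 0.10 for Pf4 (p = 0.693, rho 0.179, p = 0.578). None passed after adjustment over the 7 relations, the lowest being Gp1bb (exact permutation, adjusted p = 0.161 for r and 0.0932 for rho). For r the adjusted p was 0.234 for Gp9, Gp1ba, Treml1 and Ppbp and 0.693 for Gp6 and Pf4. For rho it was 0.232 for Gp9, Gp1ba, Treml1 and Ppbp, 0.575 for Gp6 and 0.578 for Pf4.

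Some of these values rested on few libraries. In a further check the 2 libraries farthest from the median of the platelet gene, judged before centring, were left out. Any group then left with 1 library was dropped, so 14 libraries remained for Gp1bb and Gp6 and 13 for the others. There r was 0.77 for Gp9, 0.66 for Gp1bb, 0.41 for Treml1, 0.35 for Ppbp, 0.31 for Gp6, 0.20 for Gp1ba and 0.04 for Pf4. The relation with Gp1ba was thus weaker without the libraries dropped in this way. Without either heart knockout-labelled library, r with Gp9 was 0.46 and with Gp1ba 0.34. Without liver control 2 or 3, r with Gp1bb was 0.73 or 0.77 and passed (exact permutation, adjusted p = 0.0243 in both). Within a tissue, centred r of Pf4 with Itga2b was 0.02 over 6 liver libraries (exact permutation p = 0.917) and 0.83 over 6 lung libraries (p = 0.0556), so the pooled value did not hold in both. Leaving out 1 library moved the pooled r of Pf4 from −0.11 to 0.38. For Gp1bb the within-tissue r was 0.62 in liver (exact permutation p = 0.333) and 0.90 in lung (p = 0.0278, the smallest that 36 permutations can give). For Gp9 it was 0.70 in liver (exact permutation p = 0.194) and 0.13 in lung (p = 0.889), so its pooled value did not hold in lung. In liver and lung, r was 0.31 and 0.41 for Gp1ba and 0.52 and 0.60 for Treml1. It was 0.63 and 0.008 for Ppbp, and 0.31 and −0.36 for Gp6. These correlations are over libraries that share a depth scaling, and liver and lung libraries of the same number may share a mouse.

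**Figure D4:**
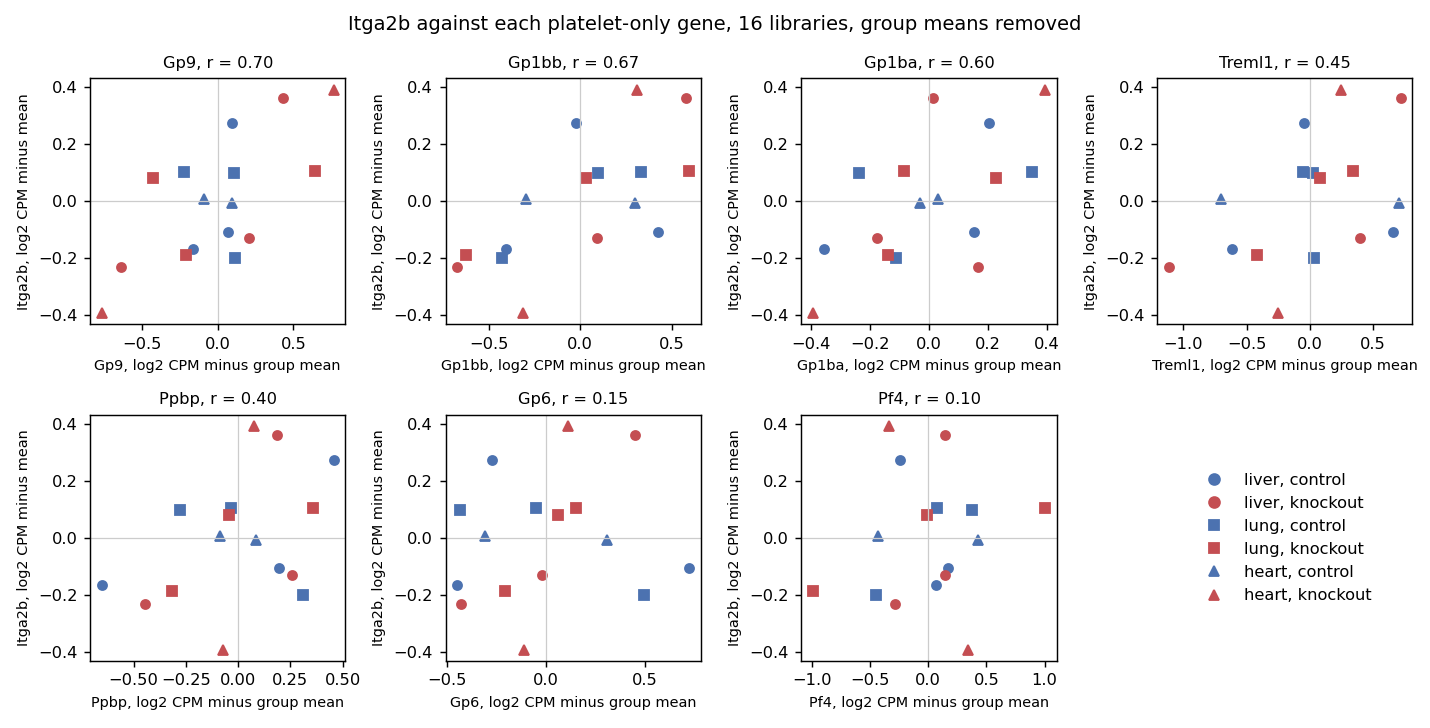
Itga2b against each platelet-only gene in 16 libraries, both as log2 CPM minus the mean of the library's group, with Pearson r above each panel. With all tissues pooled, points for Gp9 and Gp1bb lie along a rising band (r 0.70 and 0.67). Those for Pf4 and Gp6 do not (r 0.10 and 0.15). Within lung alone, r was 0.13 for Gp9, 0.90 for Gp1bb, 0.83 for Pf4 and −0.36 for Gp6.

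Ranked by centred r with Itga2b among 19645 other genes, Gp9 was number 210, Gp1bb 285, Gp1ba 590, Treml1 1831, Ppbp 2401, Itgb3 4536 (r 0.26), Gp6 6451 and Pf4 7442. Tubb1, a tubulin of platelets outside the 9, was number 188 (r 0.71). The 5 genes of at least 1 CPM most like Itga2b were Slc6a8 (r 0.90), Fer1l5 (0.88), Tcea2 (0.88), Hexdc (0.88) and Thrb (0.87), none of them on a platelet list. For the summed platelet-only genes the 5 were Rnaseh2a (0.93), Sun2 (0.91), E2f6 (0.90), Siva1 (0.90) and Mcrip2 (0.90), and Itga2b was number 7662 (r 0.13) of 19639. Among the platelet-only genes, the highest pairs were Gp1bb with Treml1 (r 0.84) and Gp6 with Treml1 (r 0.78), and Pf4 had r of 0.25 with its neighbour Ppbp. All are over the same 16 libraries and are given as descriptions.

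Other platelet genes were read from a list of 30, none of them members, also chosen with earlier results of these data known. In liver 5 rose and 3 fell, in lung 2 rose and 2 fell, and in heart 12 rose and 5 fell, with median log2 changes of 0.07, 0.22 and 0.80. Of all genes tested, 9.54%, 4.35% and 10.2% rose, and 9.87%, 4.11% and 9.09% fell in liver, lung and heart. Gp5, the remaining chain of the von Willebrand factor receptor, passed in no tissue (log2 0.24, 0.79 and 0.91). Tubb1 fell in heart (log2 −2.01, adjusted p = 0.00723 by edgeR) and had 0.42 and 0.74 in liver and lung, with adjusted p of 0.441 and 0.183.

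The platelet genes with the clearest calls are also known outside platelets. Itga2, the alpha-2 collagen receptor subunit, rose in liver from 1.16 ± 0.314 to 35.6 ± 7.59 CPM and in heart (log2 3.29), with log2 −0.39 in lung (adjusted p = 0.238). P2rx1, an ATP-gated channel, rose in liver (log2 3.24) and heart (4.87). Tbxa2r, the thromboxane receptor, fell in all 3 tissues (log2 −3.13, −2.31 and −2.18), and Clec1b, the podoplanin receptor, rose in all 3 (0.82, 0.67 and 1.32). Clec1b had 252 ± 46.7 CPM in liver controls, more than Itga2b or Itgb3 had there. Among granule and cytoplasmic genes, Thbs1 rose in liver and heart (log2 5.45 and 2.45), as did Fermt3 (1.18 and 2.78). Rasgrp2 fell in lung and heart (−1.17 and −4.15), and Tbxas1 fell in liver (−1.19) and rose in lung (3.14) and heart (1.79).

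Of 8 megakaryocyte transcription factor genes, 7 were tested. Tal1 rose in all 3 tissues, from 94.7 ± 9.42 to 148 ± 13.3 CPM in liver (log2 0.65), from 125 ± 12.2 to 164 ± 18.1 CPM in lung (log2 0.39) and from 84.8 ± 5.45 to 125 ± 3.91 CPM in heart (log2 0.57). Nfe2 rose in liver (log2 1.81) and Runx1 in heart (log2 3.39). Gata1, named here after its values were seen, reached at most 0.46 CPM in any library and passed in no tissue.

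Markers of other cells moved with the groups in places. Pf4 is known in some macrophages as well as in platelets. The 12 macrophage markers summed to 342 to 1067 CPM in liver controls and 243 to 571 CPM in knockout-labelled liver. There 0 passed (also 0 at an unadjusted p under 0.05 and 0 by DESeq2). In lung they summed to 479 to 564 and 68.1 to 232 CPM, and Lyz2 alone fell (log2 −2.24). The median log2 change of the 12 in lung was 0.09, so that sum does not stand for each gene. In heart the 12 markers summed to 27.8 to 67.8 CPM in controls, with Clec4f, Cd5l and Marco at 0. They summed to 232 to 421 CPM in the other heart libraries, and 4 rose (Marco, Lyz2, Cd68 and Timd4). All 8 leukocyte markers rose in heart (sums of 6.70 to 15.2 and 58.5 to 74.0 CPM) and 0 passed in liver or lung (also 0 at an unadjusted p under 0.05 and 0 by DESeq2). All 5 lung epithelial markers rose in heart (2.06 to 3.10 and 89.7 to 152 CPM), whereas in lung 4 of the 5 fell (Sftpa1, Lamp3, Sftpb and Sftpc) and their sums were 1880 to 3050 CPM in controls and 262 to 480 CPM in the others. Blood progenitors are known to carry CD41 as well. Of 6 blood progenitor and mast cell markers, 3 could be tested and Hdc alone rose, in heart, where the sums were 24.9 to 29.2 and 117 to 120 CPM and Elane, Cpa3 and Ms4a2 were at 0 in every library. The other 2 tested, Myb and Mpo, did not pass in heart (log2 0.96 and 2.19, adjusted p = 0.606 and 0.705 by edgeR). Pf4, Itga2b and Itgb3 were higher, as these markers were, in the knockout-labelled heart libraries than in heart controls. Between those libraries, the macrophage, leukocyte and lung epithelial sums were higher in library 2, as was Pf4 (20.7 and 33.3 CPM). Itga2b (34.4 and 19.9 CPM) and Itgb3 (385 and 269 CPM) were higher in library 1. The part of the markers in the heart results was not tested. In liver, the rise of Pf4 stood beside macrophage and leukocyte marker sums whose ranges overlapped between groups. Of 6 neutrophil markers tested, S100a8, S100a9, Retnlg and Ngp rose in liver and Ngp in lung. With a seventh marker that was too low to test, they summed to 2.98 to 4.80 CPM in liver controls and to 119, 24.5 and 5.84 CPM in knockout-labelled liver libraries 1, 2 and 3, where Pf4 was at 55.6, 41.3 and 55.6 CPM. In lung the neutrophil sums were 1.03 to 6.23 CPM in controls and 15.8 to 43.5 CPM in the others, highest in library 3, and 4 of the 6 passed there by DESeq2. Their part in the liver and lung results was not tested. Of 7 red cell markers 0 passed in any tissue by edgeR, with 1, 5 and 0 at an unadjusted p under 0.05 in liver, lung and heart and 0, 3 and 0 by DESeq2. In lung their sums were 30.6 to 41.7 CPM in controls and 73.8 to 457 CPM in knockout-labelled libraries, highest in library 3, which was also the highest of its group for 8 of 9 members, all but Gp1ba. Without that library 2 members rose in lung, Itga2b and Itgb3. In liver, knockout-labelled library 3 stood apart, with red cell sums of 185 CPM against 19.1 and 23.1 CPM in libraries 1 and 2, mural and fibroblast sums of 140 against 25.4 and 21.8 CPM, and blood progenitor and mast cell sums of 218 against 91.3 and 84.8 CPM. It was the highest of its group for 7 of 9 members, all but Gp1ba and Ppbp. Without it the same 4 members rose in liver, Itga2b by log2 2.27, Itgb3 by 3.38, Pf4 by 3.69 and Gp1bb by 1.51. Heart knockout-labelled library 1 was the higher of its pair for 8 of 9 members, all but Pf4, and without it the same 3 members rose, Itga2b by log2 1.48. The part of red cell and lung epithelial RNA in the lung results was not tested.

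**Figure D5:**
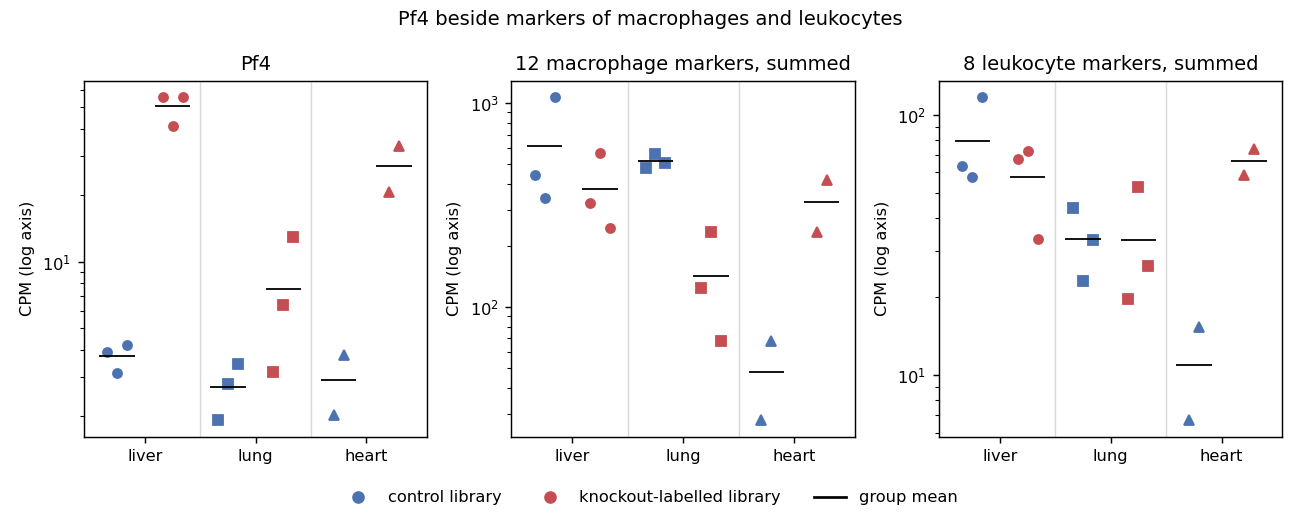
Pf4, the sum of 12 macrophage markers and the sum of 8 leukocyte markers in each library, in CPM on log axes, with the group mean as a line. Pf4 was higher in every knockout-labelled library of liver and heart than in their controls, while both marker sums were also higher in the knockout-labelled heart libraries and overlapped between groups in liver.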

How the data were processed

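RNA of sorted liver, lung and heart endothelial cells was sequenced after poly(A) selection with a TruSeq kit that keeps strand or one that does not, and which kit each library had is not stated. Per the submitters' processing notes, FastQC 0.11.5 and STAR 2.7.6a were used with the GRCm38 build. The deposited values are raw gene-level read counts, 1 per gene and library. The counting tool, strand setting and annotation were not given in the sources used here. No per-sample column was left unused. Reads of genes that overlap, such as Gp1bb and Sept5, may have been split or dropped.

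Gene names were taken from the reference table by identifier (99.6% of 52636 genes had one, and 147 shared a symbol), and coordinates and exon lengths from GENCODE M21. All 16 libraries entered 1 edgeR 4.0.16 quasi-likelihood fit (R 4.3.3, limma 3.58.1) with 6 group means, TMM factors (0.916 to 1.07) and filterByExpr (minimum count 10, minimum total 15), which left 19646 genes. P was adjusted by Benjamini-Hochberg over those genes at 0.05. Groups of 2 or 3 libraries limit the precision. Centred correlations used log2(CPM + 0.1), the prior being in CPM, with 5184 exact permutations within groups. Correlations without centring within a tissue are not given, because libraries of a tissue fall into 2 clusters by genotype. Same-numbered liver and lung libraries had deviations correlated at 0.14, 0.15 and 0.16 in controls, all over 0.1, and at 0.06, 0.22 and 0.21 in knockout-labelled libraries. The control numbers were therefore treated as a possible pairing of liver with lung in an alternative fit, while the main tests used no block. Libraries of different numbers were not compared in this way. A replicate block of genotype and title number over liver and lung, chosen after seeing the data, left 8 members called between control tissues and Pf4 alone between knockout changes (log2 −2.46, adjusted p = 0.0258, edgeR). Correlation of log2 CPM between libraries of a group was 0.976 to 0.994.

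Members and gene lists were chosen with earlier results of these data known. Named genes were the members, up to 4 genes of each other list with the smallest adjusted p in any tissue, Gp5 and Tubb1, the 5 genes of at least 1 CPM most like Itga2b or the summed platelet-only genes, and Erg and Fli1. 1 further gene of this rule is not reported here. Motifs were searched on both strands of the 250 bases before each RefSeq start (GRCm38.p6). The fit was tested on simulated data of 19097 genes with 100 changed per fold size. The changed genes all had at least 1 CPM in their tissue. The shares recovered thus do not cover scarcer genes, such as Gp6 and Treml1 in liver and heart and Gp9 in heart. Nor do they cover Gp1bb in liver, which was called there, at 0.395 CPM in controls and 1.45 CPM with the knockout label. Changes of 2-fold were recovered in 58%, 46% and 37% of genes in liver, lung and heart and changes of 4-fold in 84%, 79% and 83%, with 2.07%, 0.794% and 7.69% of calls false. DESeq2 1.42.0, RLE and total-count scaling, no filter, replicate blocks, separate fits per tissue and leaving out each library were tried as alternatives.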

Additional observations from a re-analysis of the deposited data

Results flagged for a closer look

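The knockout change of Pf4 differed between lung and liver. The lung minus liver difference was −2.30 on the log2 scale (SE 0.58, adjusted p = 0.031, edgeR interaction term), with 1.46 in lung and 3.76 in liver. All 3 knockout-labelled liver libraries were above all liver controls for Pf4, and 2 of 3 knockout-labelled lung libraries were above all lung controls. The difference kept its direction in all 12 fits that left out 1 liver or lung library, and passed the threshold in 5 of them. Leaving libraries out for this difference was chosen after seeing the data.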

How the results depend on the processing

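The Itga2b change kept its direction and its call in all 37 alternatives, as did the Itgb3 change in every alternative run. The number of members called was within 1.5 times in 63 of 69 alternatives. In lung it was 2 to 4 when 1 library was left out (2 without lung knockout-labelled 3 or any lung control). With DESeq2 it was 2 for the lung minus liver difference (Gp1ba and Pf4) and 4 for heart minus lung in controls (Gp1bb, Gp9, Ppbp and Treml1). DESeq2 also called Gp1bb and Ppbp in lung (adjusted p = 0.0304 and 0.0413), and Gp1bb passed without lung knockout-labelled 1 (adjusted p = 0.049). Of 147 alternatives for the relations, 145 stayed on their side of the threshold. The r of Itga2b with Gp1bb ranged from 0.57 to 0.77 over single libraries left out. The log2 change of the ratio of Itga2b to all 7 summed platelet-only genes was 0.25 in liver, 1.08 in lung and −0.004 in heart. Without Pf4 it was 2.31, 1.13 and 1.89, and over Gp9 alone 1.52, 0.62 and 2.61, both chosen after seeing the data. The heart groups overlapped for the ratio to all 7 genes, so the value of −0.004 gives no direction. The other 2 ratios were higher in knockout-labelled heart without overlap.

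With total counts in place of TMM, also added later, the median change of all genes in liver moved from 0.02 to 0.14 and calls from 1875 higher and 1939 lower to 2606 and 1479. In heart they moved from 2001 and 1785 to 2447 and 1366. No member turned direction with total counts. Over all alternatives, 3 of 27 member changes, none of them called, turned sign: Gp6 in lung (−0.06 without lung control 3), Gp9 in heart (0.19 without heart knockout-labelled 2) and Treml1 in heart (1.004 without heart control 2, and 0.28 with the description number as a replicate block). Same-numbered control and knockout-labelled libraries had deviations correlated at 0.02, 0.33 and 0.14 in liver, −0.12, −0.09 and 0.05 in lung and 0.14 in heart, so the numbers were not taken to pair genotypes. With the title number as a replicate block 4, 4 and 3 members passed in liver, lung and heart, and all genes called moved from 3814, 1662 and 3786 to 3888, 1814 and 3976. Gp6 and Treml1, with as few as 3 and 4 reads in a library, limit what small changes could be seen.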
